A study of Homo sapiens with 2 samples.

Results

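The integrated stress response genes described here are ATF4, ATF3, DDIT3, XBP1, TRIB3, SESN2, DDIT4, CHAC1, ASNS and PSAT1. They were chosen by name with earlier results of these data known. Every probe that the array assigns to them was used, which gave 15 probes for 10 genes among 41000 probes for 30238 gene names. They were measured in sublines of A2780, a human ovarian carcinoma cell line that is likely of the endometrioid subtype. A2780CBN was selected for survival in rising carboplatin up to 22.2 µM, and A2780CBNDXL was selected in carboplatin and docetaxel raised together. The dose of the combination is given differently in the labels and the methods and is not printed here. Each line was hybridized against A2780CC, its own co-cultured control, which stands for the effect of prolonged passage alone. Resistance was maintained by adding the drug or drugs at intervals, and the time from the last addition to RNA isolation is not given in the sources used here. Carboplatin is a platinum compound that crosslinks DNA, and docetaxel is a taxane that stabilizes microtubules.

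RNA of 3 isolations per line was pooled into 1 sample and was hybridized to 4 two-colour arrays. Each of 2 slides carried a forward and a reverse labelled array of the line. Each line is therefore 1 sample, and no test between groups was possible. Every SD below is over arrays and covers labelling and hybridization error only, not the spread between cultures. A log2 ratio compares the line with its control on the same array, so that 1 is a doubling and -1 a halving. Its sign rests on the channel taken as the line, a choice that was not tested. A gene was called higher or lower when 3 conditions held. The size of the mean log2 ratio had to reach 1, the arrays had to share a sign, and 1 channel of the probe had to be well above background on all 4. Between 59.8% and 67.5% of spots were well above background per channel, and no spot was saturated. The log2 ratios of arrays with opposite labelling correlated at 0.581 to 0.737 over all probes, against 0.852 to 0.896 for arrays with the same labelling. The spike-in signals of A2780CBNDXL array 1 had a coefficient of variation of at least 19.5% in both channels, against 3.56% to 4.87% on the other arrays. Of the epithelial markers, KRT8, KRT18 and EPCAM passed the filter in both lines, while CDH1 stood well above background on none of the arrays. PAX8 passed in both lines and WT1 in neither. The leukocyte marker PTPRC and the endothelial markers PECAM1 and CDH5 likewise stayed near background throughout, whereas the T cell gene CD3E passed with log2 ratios of 0.10 and -0.02. The stromal genes DCN and COL1A1 were high in A2780CBNDXL, at log2 ratios of 3.62 ± 0.29 and 2.04 ± 0.20 (SD over 4 arrays), against 2.21 and 0.99 in A2780CBN.

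The integrated stress response begins with the kinases PERK, GCN2, PKR and HRI, which sense unfolded protein in the endoplasmic reticulum, missing amino acids, double-stranded RNA and low heme. They phosphorylate the initiation factor eIF2 alpha, which slows most translation but lets the ATF4 messenger be translated. The ATF4 protein, a bZIP transcription factor, then switches on genes for amino acid synthesis, amino acid import and tRNA charging, and, with the factor CHOP that DDIT3 encodes, genes of cell death and of feedback control. ATF4 is thus controlled mostly in translation, and an array reports only its messenger. XBP1 belongs to a separate arm of the unfolded protein response, in which the sensor IRE1 splices the XBP1 messenger.

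Of the 10 members, 4 held a sequence match to an element of these pathways in a promoter window, and these matches are shown. ATF3, ASNS and CHAC1, which were called lower in A2780CBNDXL, are among them, and so is XBP1, which was not. ATF4 and TRIB3 were also called lower and held no match. The windows run from 250 bases before to 50 bases after each RefSeq start on GRCh38.p14, and the 10 genes had 17, at least 1 each. ATF3, ASNS and XBP1 each had a further window without a match. The search took in both strands and used TGATGNAA, the core of the C/EBP-ATF response element that ATF4 binds, where N is any base. It also used TGACGTCA, the cAMP response element, and TGACGTGG, the unfolded protein response element, which share their opening letters. The endoplasmic reticulum stress response element was written as CCAAT, 9 unspecified bases and CCACG. Of 35116 windows, 3.62% held TGATGNAA, 1.85% TGACGTCA, 0.729% TGACGTGG and 0.0769% the endoplasmic reticulum stress response element. Counted by gene over 27305 genes, the shares were 4.46%, 2.25%, 0.927% and 0.0916% in that order. In ATF3, ASNS and CHAC1 the match is to TGATGNAA, in CHAC1 on the opposite strand, and in XBP1 it is to the endoplasmic reticulum stress response element. Relative to the start site, the matches begin at -191, -68, -209 and -52 in that order. In the stretches of 100 bases below, written 5′ to 3′ along the gene, capitals mark the match. They lie at chr1:212565171-212565270 on the plus strand, chr7:97872422-97872521 on the minus strand, chr15:40953221-40953320 on the plus strand and chr22:28800570-28800669 on the minus strand.
ATF3: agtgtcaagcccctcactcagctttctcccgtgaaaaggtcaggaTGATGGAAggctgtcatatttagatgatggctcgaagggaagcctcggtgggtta
ASNS: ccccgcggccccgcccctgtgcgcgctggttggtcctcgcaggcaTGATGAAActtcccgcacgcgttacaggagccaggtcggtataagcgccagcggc
CHAC1: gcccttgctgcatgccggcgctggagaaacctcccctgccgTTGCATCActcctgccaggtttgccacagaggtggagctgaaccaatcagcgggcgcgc
XBP1: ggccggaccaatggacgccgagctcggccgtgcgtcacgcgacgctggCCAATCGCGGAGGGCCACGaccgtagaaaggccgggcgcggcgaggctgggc
For the other 6 members none of these letter strings was in a window, which says nothing about whether the factors bind there.

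In A2780CBNDXL the ATF4 messenger and several of its known targets were low. ATF4, ATF3, TRIB3, CHAC1 and ASNS were called lower, and no member was called higher, among 8 members that passed the filter. ATF3 passed through its control channel alone, since its line channel was well above background on 2 of 4 arrays. It was not called when both channels had to be well above background. Over all 17116 genes tested in this line, 9.20% were called lower and 7.70% higher. Because the members were chosen with earlier results known, these shares give a scale and not a test. In A2780CBN, 7 members passed and 1, TRIB3, was called higher, where 8.0% of 17951 genes were called higher and 4.55% lower. The members that did not pass were DDIT4 in both lines, ATF4 and XBP1 in A2780CBN and PSAT1 in A2780CBNDXL. All of these are bright probes on which the scanning software had marked spots as outliers on 1 or 2 arrays. With those spots kept, all 10 members passed in both lines, and 7 were called lower in A2780CBNDXL, DDIT4 and PSAT1 being added. The share of all genes called with those spots kept is not given here. In pooled RNA, a change in every cell and a change in the share of cells that express a gene cannot be told apart.

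**Figure D1:**
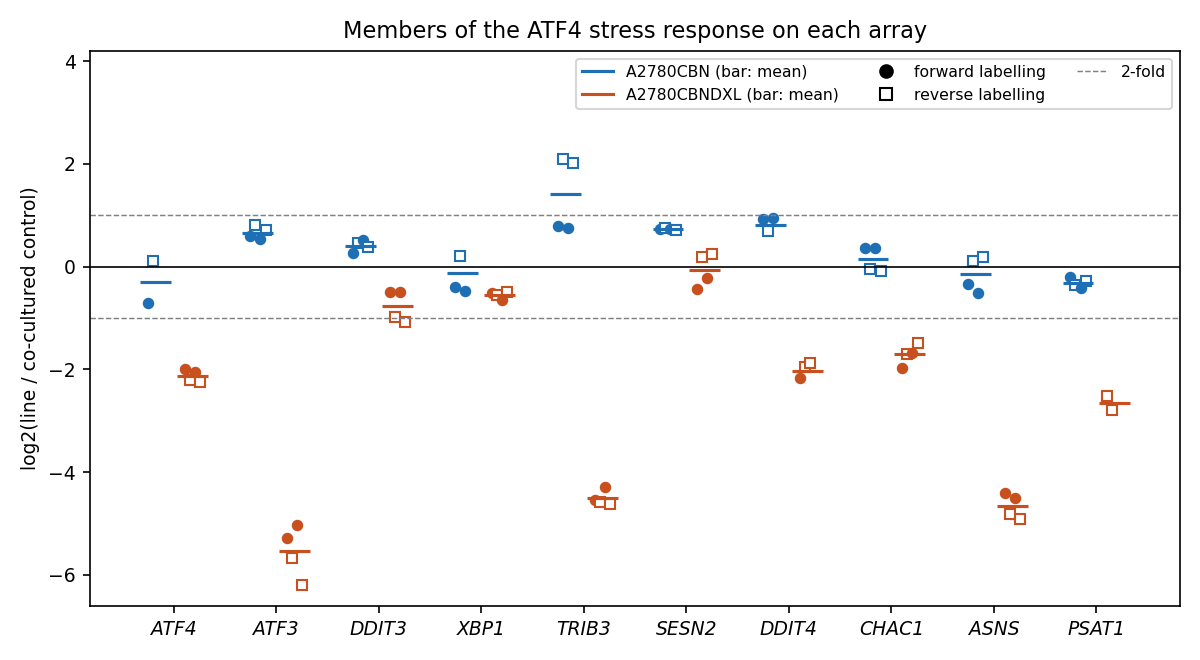
Log2 ratio of line over co-cultured control for the 10 members on each array, with A2780CBN in blue, A2780CBNDXL in orange, filled circles for forward and open squares for reverse labelling, bars for means and dashed lines at 2-fold. In A2780CBNDXL the points of ATF3, TRIB3 and ASNS lie below -4 and those of SESN2 straddle 0, while in A2780CBN the 4 points of TRIB3 separate by labelling.

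The probe that stands for ATF4 lies at chr22:38248523-38248582 (NCBI36, plus strand). In A2780CBNDXL its log2 ratio was -1.99, -2.20, -2.05 and -2.25 on arrays 1 to 4, a mean of -2.12 ± 0.12 or 4.36-fold lower than the control. The line's signal ran from 31862 to 46027 and the control's from 126878 to 212605, so that the channels did not overlap. In A2780CBN only the arrays of slide 2 gave an unmarked spot, with log2 ratios of -0.71 and 0.12. The other ATF4 probe, 702 bases away, was measured on all arrays. Its log2 ratio was -1.36 ± 0.27 in A2780CBNDXL, with all arrays between -1.64 and -1.10, and -0.15 ± 0.18 in A2780CBN. Both ATF4 probes were thus lower in the dual resistant line, by different amounts, and neither differed from 0 by more than its array spread in A2780CBN.

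ATF3 encodes a bZIP factor that is induced by ATF4 and by many other stress signals and that pairs with other bZIP proteins. Its probe at chr1:210860479-210860538 (NCBI36) gave log2 ratios of -5.28, -5.66, -5.02 and -6.20 in A2780CBNDXL, the lowest mean among the members at -5.54 ± 0.51. The signal of the line was 25.4 to 43.4, well above background on 2 of the 4 arrays, and that of the control was 1406 to 2124. The size of this change rested on how a near-background signal is treated, since it was -2.60 with the normexp background correction. On the ATF3 probe 1.02 kb away the control was well above background on all arrays and the line on none, which gave at least a 3.93-fold lower value. In A2780CBN the same probes gave 0.66 ± 0.12 and 0.69 ± 0.14, positive on all arrays and under the 2-fold limit. Set against the other line's control instead of its own, the first of these values was -0.06.

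DDIT3 encodes CHOP, the bZIP factor that works beside ATF4 when stress persists. Its single probe spans 327 bases of NCBI36 for 60 letters, at chr12:56197467-56197793 on the minus strand, and so crosses an intron. The log2 ratio was 0.27, 0.46, 0.52 and 0.38 in A2780CBN and -0.50, -0.98, -0.49 and -1.07 in A2780CBNDXL. All arrays of a line had the same sign, opposite between the lines, and neither mean reached the 2-fold limit, at 0.41 ± 0.10 and -0.76 ± 0.31. The difference between these means, -1.17, was 0.027 with the control channels exchanged between the lines. That exchange adds the difference between the controls to the difference between the lines and does not remove it. Set directly against each other after scaling between arrays, the line channels differed by -0.64 ± 0.37, A2780CBNDXL minus A2780CBN, with a highest pair of -0.14. The control channels differed by 0.67 ± 0.08.

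XBP1 was called in neither line. The probe at chr22:27520733-27520792 (NCBI36) gave -0.52, -0.56, -0.66 and -0.50 in A2780CBNDXL, a mean of -0.56 ± 0.07. The 3 arrays measured in A2780CBN gave -0.40, 0.20 and -0.48. The probe 2.37 kb away gave -0.06 ± 0.42 and 0.10 ± 0.40 in the respective lines, with signs that followed the labelling direction. The array lists each of these probes for both RefSeq transcripts of XBP1, so splicing was not measured.

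TRIB3 encodes a pseudokinase that ATF4 and CHOP induce and that holds both back. In A2780CBNDXL the probe at chr20:326107-326166 (NCBI36) gave log2 ratios of -4.55, -4.58, -4.30 and -4.62, a mean of -4.51 ± 0.15 or 22.8-fold lower. The line's signal was 797 to 1289 and the control's 18689 to 30527. In A2780CBN the same probe gave 0.78, 2.10, 0.75 and 2.01, a mean of 1.41 ± 0.74 that passed the 2-fold limit on the reverse labelled arrays and not on the forward ones. On the probe 1.25 kb away the order of the labelling directions was the opposite, at 1.62, 1.18, 1.64 and 1.23, with nearly the same mean of 1.42 ± 0.24. The call of TRIB3 as higher in A2780CBN was lost when the control of the other line replaced its own, at 0.44, and on the forward labelled arrays alone, at 0.77. In A2780CBNDXL both TRIB3 probes were lower, the second by -3.16 ± 0.59.

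SESN2 and DDIT4 encode stress-induced inhibitors of mTORC1 signalling, and both are also known targets of p53. SESN2 gave 0.73, 0.75, 0.74 and 0.70 in A2780CBN, a mean of 0.73 ± 0.02 that was below the 2-fold limit. Against the other line's control SESN2 was at 1.04 and was called higher. In A2780CBNDXL it gave -0.44, 0.19, -0.23 and 0.24, positive on the reverse and negative on the forward arrays. DDIT4, which also responds to hypoxia, gave 0.93, 0.68 and 0.94 on arrays 1 to 3 of A2780CBN. In A2780CBNDXL arrays 1, 2 and 4 gave -2.17, -1.96 and -1.87. The line's signal for DDIT4 was 8957 to 10544 there against 36729 to 40978 in the control. The marked spots gave 0.55 on array 4 of A2780CBN and -2.27 on array 3 of A2780CBNDXL. DDIT4 was thus above its control in one line and below it in the other on every array, marked spots included.

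CHAC1 encodes an enzyme that degrades glutathione and is induced by ATF4. It gave -1.98, -1.69, -1.67 and -1.49 in A2780CBNDXL, a mean of -1.71 ± 0.20 or 3.27-fold lower. The line's signal was 1805 to 2155 and the control's 5411 to 8477. In A2780CBN the values of 0.35, -0.04, 0.37 and -0.08 followed the labelling, with a mean of 0.15 ± 0.24.

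ASNS encodes asparagine synthetase, a textbook target of ATF4. In A2780CBNDXL the probe at chr7:97319397-97319456 (NCBI36, minus strand) gave -4.41, -4.81, -4.51 and -4.92, a mean of -4.67 ± 0.24 or 25.4-fold lower. The line's signal was 3467 to 5530 and the control's 73948 to 126232. In A2780CBN the values were -0.35, 0.11, -0.51 and 0.18, so that the sign turned with the labelling. A further probe that the array also names ASNS lies 56.7 kb away and is listed for a cDNA clone. It was dim and behaved differently, at 2.21 ± 0.23 in A2780CBN and 0.19 ± 0.17 in A2780CBNDXL. Averaging both ASNS probes turned the A2780CBN value to 1.03 and the A2780CBNDXL value to -2.24. Whether the distant probe reports ASNS transcripts was not tested.

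PSAT1 encodes phosphoserine aminotransferase of the serine pathway. In A2780CBNDXL only the reverse labelled arrays had unmarked spots, at -2.51 and -2.79, so that the dye effect could not be averaged out. The marked spots of the forward arrays gave -2.29 and -2.45. In A2780CBN all 4 arrays lay between -0.42 and -0.21. The PSAT1 signal in the dual resistant line was 11600 and 14618 on the unmarked arrays, against 66143 and 101387 in its control.

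**Figure D2:**
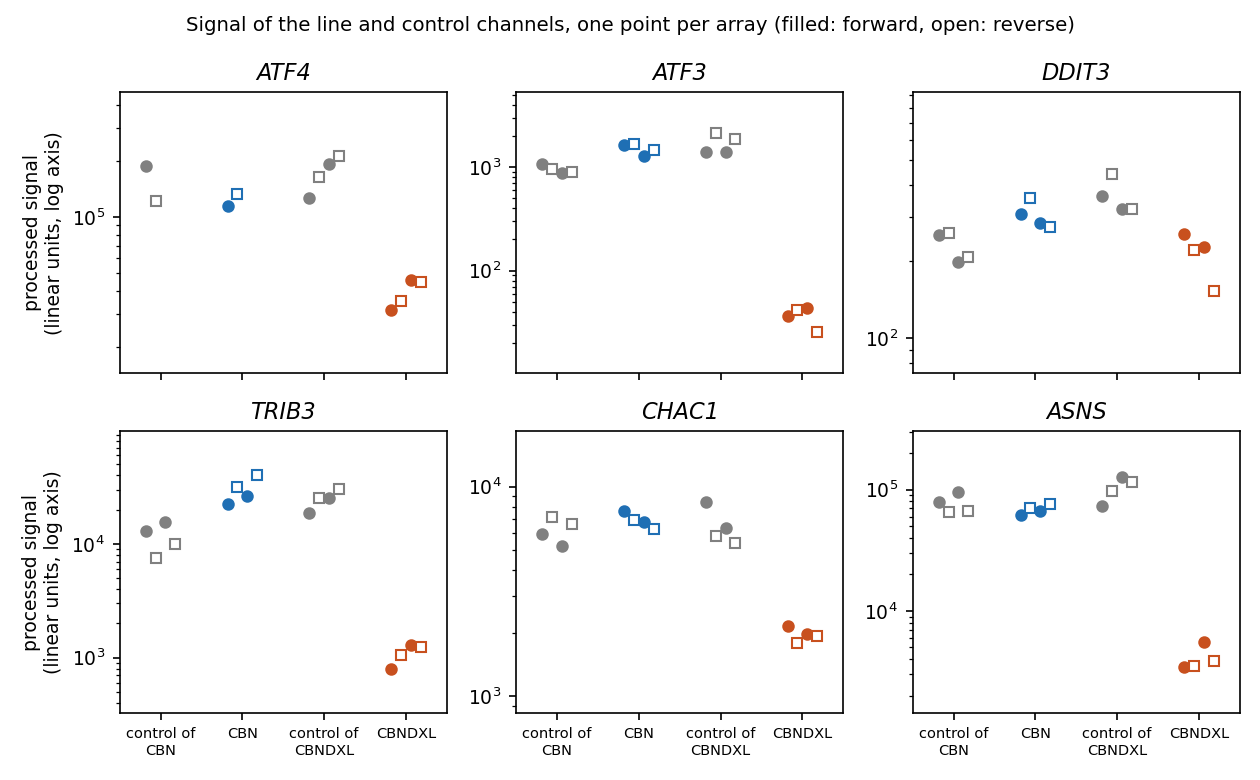
Processed signal of the control channel (grey) and of the line channel (blue for A2780CBN, orange for A2780CBNDXL) on each array, on a log axis, for the probes that stand for ATF4, ATF3, DDIT3, TRIB3, CHAC1 and ASNS. For all of these except DDIT3 the A2780CBNDXL channel lies below the other sets of points, and for TRIB3 the A2780CBN channel lies above its own control and overlaps the control of A2780CBNDXL.

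Since both lines were hybridized on the same slides, their channels were also set against each other after scaling between arrays, pairing arrays of equal slide and labelling. The pairing went by the name of the labelling direction, which may stand for opposite dyes in the 2 lines. Each SD over pairs may therefore include dye effects. A gene entered when its line channel or its control channel was well above background on all 8 arrays, which left 6 members, ATF3 among them through its control channel alone. TRIB3, ASNS, CHAC1, SESN2 and ATF3 were lower in A2780CBNDXL than in A2780CBN and none was higher. Over 16034 genes, 8.92% were lower and 4.96% higher in this comparison. The log2 differences were -4.96 ± 0.34 for TRIB3, -4.27 ± 0.39 for ASNS, -2.01 ± 0.23 for CHAC1 and -1.11 ± 0.24 for SESN2. The value of -5.53 ± 0.35 for ATF3 rested on A2780CBNDXL signals that were well above background on only 2 of 4 arrays, so its size is uncertain. SESN2 reached the limit between the lines without reaching it in either line against its own control. The control channels showed how far the baselines differed. Of the same 6 members TRIB3 was higher in the control of A2780CBNDXL, by 1.01 ± 0.51, and none was lower, where 3.27% of genes were higher and 0.686% lower. ATF3 and DDIT3 were also above 0 on all 4 pairs of controls, at 0.78 ± 0.28 and 0.67 ± 0.08. The second probes showed smaller control differences. That of TRIB3 was at 0.54 ± 0.42, under the 2-fold limit, and that of ATF3 at 0.36 ± 0.59, with a lowest pair of -0.16. The control differences of ATF4, ASNS, CHAC1, SESN2, XBP1 and PSAT1 were between -0.27 and 0.27.

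**Figure D3:**
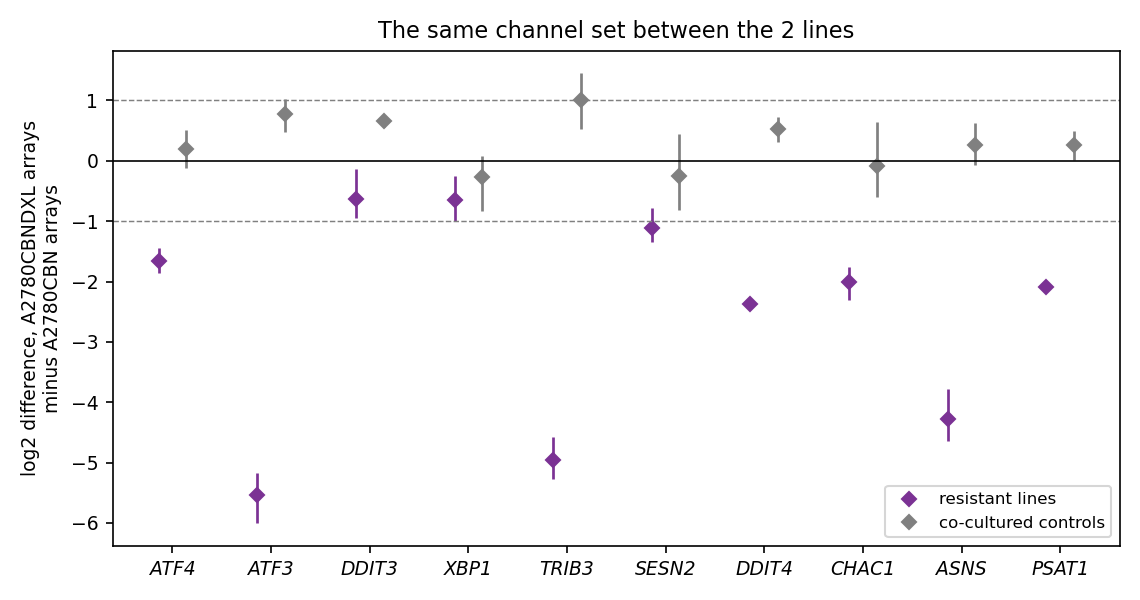
Log2 difference between the A2780CBNDXL and the A2780CBN arrays in the line channels (purple) and in the control channels (grey), as the mean and the range over pairs of arrays with the same slide and labelling, with dashed lines at 2-fold. The line channels of ATF3, TRIB3 and ASNS differ by -4 or more in size, while the control channels lie between -0.27 and 1.01 on average.

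The other genes of the pathway were taken from 6 lists, described here from the upstream genes to the targets. The lists too were chosen with earlier results of these data known, so their counts are not separate support. Of the 9 stress sensor kinases and eIF2 alpha regulators, all passed in both lines, and none was called in A2780CBN. In A2780CBNDXL the IRE1 gene ERN1 was lower at -1.57 ± 0.23, and PPP1R15A, a phosphatase subunit that reverses eIF2 alpha phosphorylation, was higher at 1.08 ± 0.35. The call of PPP1R15A was lost on the forward labelled arrays alone, with the other line's control and with centred background-subtracted signals, and neither gene was called with normexp. The list medians were 0.36 and -0.09, where the medians over all genes tested were -0.06 in A2780CBN and 0.04 in A2780CBNDXL. The 4 kinase genes EIF2AK1 to EIF2AK4, named after their values were seen, lay between -0.45 and 0.61 in the dual resistant line.

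The enzymes of amino acid synthesis and one-carbon metabolism had a median log2 ratio of -0.79 in A2780CBNDXL, with 4 of 10 tested called lower and all 10 below 0. MTHFD2, the mitochondrial folate enzyme, was lowest at -2.64 ± 0.46. GPT2, an alanine transaminase, was at -1.64 ± 0.05, and SHMT2, which splits serine into glycine in mitochondria, was at -1.43 ± 0.08. In A2780CBN the median over 11 tested was 0.00, and CTH, the cystathionine gamma-lyase gene, was the only one called, higher at 1.14 ± 0.53. That call was lost on the forward labelled arrays alone, with the other line's control and with normexp.

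Of the 10 amino acid transporters, 6 were called lower in A2780CBNDXL, none was called higher and all had means below 0, with a median of -1.39. SLC7A11, the cystine carrier, stood near background in this line throughout and was at least 11.9-fold lower than the control. SLC7A3 and SLC7A5, carriers of cationic and of large neutral amino acids, were at -3.38 ± 0.23 and -2.53 ± 0.33. The line channel of SLC7A3 was well above background on 3 arrays. With both channels required above background, 4 of 8 transporters were lower, with a median of -1.06. Normexp gave 4 of 10 and a median of -0.95. In A2780CBN the median was -0.22 and SLC1A4, a carrier of neutral amino acids, was higher at 1.02 ± 0.14, a call that was lost without array 4, on slide 1 alone and with normexp. SLC7A11 was at 0.80 ± 0.22 in that line.

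Of the aminoacyl-tRNA synthetases and the tRNA exporter XPOT, 7 of 12 tested were lower in A2780CBNDXL and all 12 means lay below 0, between -1.73 and -0.52. MARS, WARS and CARS, which charge the tRNAs of methionine, tryptophan and cysteine, were lowest at -1.73 ± 0.10, -1.66 ± 0.06 and -1.57 ± 0.34. In A2780CBN none of 11 was called and the median was -0.33. The median in A2780CBNDXL was -1.06.

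Of the further ATF4 and CHOP targets, 9 of 13 tested were lower and none higher in A2780CBNDXL, with a median of -1.13. VLDLR, a lipoprotein receptor whose line channel was well above background on 3 arrays, was at -4.94 ± 0.26, STC2, a secreted glycoprotein, at -3.70 ± 0.44 and NUPR1, a small chromatin protein of the stress response, at -2.49 ± 0.25. In A2780CBN, 2 of 14 were higher, GDF15 at 2.62 ± 0.48 and NUPR1 at 1.33 ± 0.12, and the median was 0.13. NUPR1 and SLC1A4 were called in opposite directions in the lines. GDF15, a secreted factor that p53 also induces, was at -1.31 ± 0.20 in A2780CBNDXL on the 3 arrays measured. The calls in this list are against each line's own control. Between the lines, the line channels of VLDLR, STC2 and NUPR1 differed by -4.49, -2.56 and -4.07. Those of ERO1L, also called lower and named after its values were seen, differed by 0.01 ± 0.23, while its controls differed by 1.21 ± 0.26.

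Of the endoplasmic reticulum chaperones and XBP1 or ATF6 targets, none of 18 tested was called in A2780CBN and none of 19 in A2780CBNDXL. The medians were -0.06 and -0.16, and the means in A2780CBNDXL lay between -0.89 and 0.48. Low values for the amino acid lists in the dual resistant line thus stood beside no call among the chaperones. Of these 19 chaperone genes, 14 nevertheless had means below 0, where the median over all genes tested was 0.04.

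**Figure D4:**
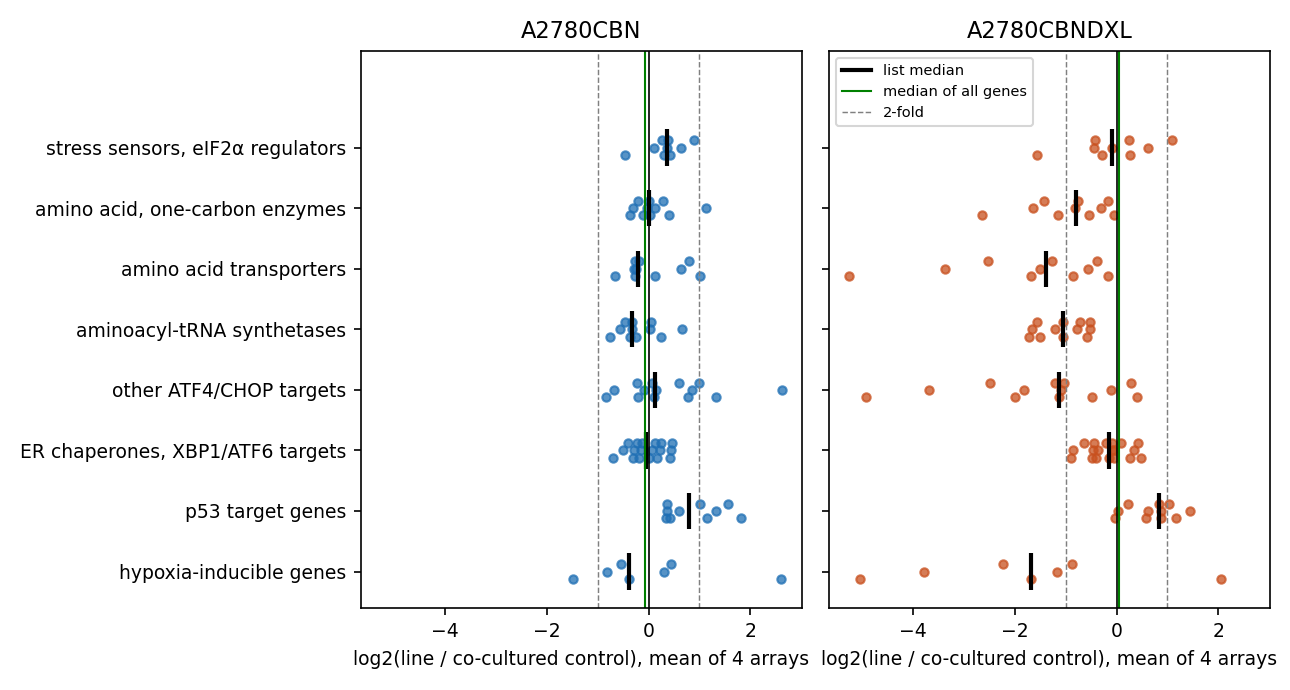
Mean log2 ratio of line over co-cultured control for each gene that passed the filter, by gene list, in A2780CBN (left) and A2780CBNDXL (right), with black bars for list medians, green lines for the median of all genes and dashed lines at 2-fold. In A2780CBNDXL the points of the transporters and tRNA synthetases all lie below 0, while those of the chaperone list stay within the 2-fold lines in both panels.

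The lists also differed in their promoters. They were drawn up by hand as parts of these pathways, among them named target genes. A surplus of these elements may therefore follow from that choice and is not separate support. TGATGNAA was in a window of 7 of 11 synthetase and exporter genes, 5 of 8 transporters, 2 of 13 further targets, 1 of 18 chaperone genes, 1 of 8 stress sensors and none of 6 synthesis enzymes that had a window. Counted by gene over 27305 genes, 4.46% held it. The endoplasmic reticulum stress response element was in 5 of 18 chaperone genes, HSPA5, HSP90B1, CRELD2, PDIA6 and CALR, against 0.0916% of genes. All synthetases and synthesis enzymes tested were below 0 in A2780CBNDXL, with or without the core in their windows.

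Genes of pathways that also act on SESN2, DDIT4 or VEGFA were called as well. Of the p53 targets, 5 of 10 tested were higher in A2780CBN and 3 of 11 in A2780CBNDXL, with none lower and medians of 0.80 and 0.84. FDXR was at 1.83 ± 0.30, BTG2 at 1.57 ± 0.13 and CDKN1A at 1.34 ± 0.50 in A2780CBN. TP53I3 was at 1.45 ± 0.08, BTG2 at 1.16 ± 0.24 and CDKN1A at 1.03 ± 0.13 in A2780CBNDXL. Of the hypoxia-inducible genes, 5 of 7 were lower in A2780CBNDXL, among them ADM at -5.05 ± 0.51, CA9 at -3.79 ± 0.65 and SLC2A1 at -2.23 ± 0.12, while NDRG1 was higher at 2.06 ± 0.31. The CA9 signal of the line was well above background on 1 array. These values depended on the control, since the other line's control gave 2 lower and 2 higher of 8 tested and a median of -0.33 in place of -1.68. The control of A2780CBNDXL exceeded that of A2780CBN by 4.48 ± 1.00 for CA9 and 1.61 ± 0.49 for ADM, while the line channels of CA9 differed by 0.26 ± 1.43 and those of ADM by -3.99 ± 0.27. In A2780CBN the exchange of controls turned 1 lower and 1 higher of 7 into 7 lower and 1 higher of 9. In A2780CBN, NDRG1 was at least 5.82-fold higher than a control that stayed near background, and BNIP3 was lower at -1.48 ± 0.07. The part of the p53 and hypoxia-inducible genes, and of the stromal genes given above, in the values of the members was not tested.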

How the data were processed

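The data are 8 two-colour Agilent arrays, 4 per line, of probes placed on NCBI36. The authors deposited Feature Extraction output (version 10.7.1.1 for slide 1, 10.7.3.1 for slide 2). The deposited processed intensity of each channel was background-subtracted, spatially detrended and dye-normalized by the authors, with a surrogate near background. Which dye the line carried on the forward arrays is not settled for both lines. The sign of every log2 ratio rests on the channel taken as the line, and that choice was not tested. On the dimmer XBP1 probe the forward and reverse means were 0.45 and -0.25 in A2780CBN, but -0.42 and 0.31 in A2780CBNDXL. The probes that stand for ATF4, ATF3, DDIT3, DDIT4, ASNS, CHAC1 and TRIB3 also turned around between the lines. So did the second probes of ATF4, TRIB3 and ASNS and, by a small margin in A2780CBN, the SESN2 probe. The other XBP1 probe and the second ATF3 probe did not, and PSAT1 could not be compared. The cause was not tested. The dye entries of the reverse arrays conflict with their name, and these were turned over as the name states.

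Spots marked as outliers were left out, spots of a probe were averaged, and log2 ratios were averaged within and then over labelling directions. A gene's probe was that with the highest mean signal. The calling limits were 2-fold, 4 arrays of equal sign and a filter on dim probes. Line channels were compared after Aquantile scaling in limma 3.58.1 (R 4.3.3), and the other steps ran in Python 3.11.15. The rules were run on simulated arrays whose changes lay above the 2-fold limit, with small noise and every channel well above background. The simulation therefore did not test changes near the limit or the filter on dim probes. Promoters came from RefSeq (GRCh38.p14).

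The members and lists were chosen with earlier results of these data known. All members were named, and from each list up to 3 called genes with the largest and up to 3 with the smallest ratio in each line, and any called in opposite directions. List genes that failed the filter entered no count. Alternatives were normexp with an offset of 50 and loess, median-centred background-subtracted signals, single arrays left out, single slides or labelling directions, all probes averaged, other filters and fold limits of 1.5 and 3, the methods' 3-way ANOVA, limma with and without slide as a block (both with Benjamini-Hochberg 0.05 and 2-fold), and the other line's control. Keeping outlier spots was added after seeing the data. A comparison of protein sequences was not run. The A2780DXL line was not analysed here. The number of arrays limits the precision.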

Additional observations from a re-analysis of the deposited data

Results flagged for a closer look

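The 4 members ATF3, DDIT3, DDIT4 and TRIB3 were positive on every measured array of A2780CBN and negative on every measured array of A2780CBNDXL. The difference of their log2 ratios, A2780CBNDXL minus A2780CBN, was -6.20 for ATF3, -1.17 for DDIT3, -2.85 for DDIT4 and -5.92 for TRIB3. Among the list genes given by name, the same held for SLC7A11 at -6.06, ADM at -5.49, GDF15 at -3.92, NUPR1 at -3.82, SLC1A4 at -2.70, WARS at -2.31 and CTH at -1.45. Over all 99 list genes measured on at least 3 arrays of each line, 14 had this pattern, 7 of them not given by name, and 1 had the opposite pattern. The share of all genes on the array with this pattern was not computed. Whether the members or the lists exceed that share is therefore not known. For SLC7A11 the A2780CBNDXL channel stayed near background. Each line is 1 sample, so the difference between the lines was not tested. The 2 control pools differed as well on the probes that stand for these members, by 1.01 for TRIB3, 0.78 for ATF3, 0.67 for DDIT3 and 0.53 for DDIT4, with the control of A2780CBNDXL higher. For the named list genes the control differences were 1.61 for ADM, 1.43 for CTH and 1.18 for GDF15. They were -0.08 for WARS, -0.21 for NUPR1 and SLC1A4 and -0.84 for SLC7A11. The line channels of CTH differed by only -0.13 ± 0.27. Set against the control of the other line, the difference was -4.75 for ATF3, 0.027 for DDIT3, -1.84 for DDIT4 and -3.95 for TRIB3. These values add the control difference to that of the line channels and so do not remove it. The line channels of DDIT3 alone differed by -0.64 ± 0.37.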

How the results depend on the processing

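The main counts were 2253 genes and 1 member in A2780CBN and 2893 genes and 5 members in A2780CBNDXL. The 5 members lower in A2780CBNDXL (ATF4, ATF3, TRIB3, CHAC1 and ASNS) kept their direction and call under every alternative, except that ATF3 dropped out when both channels had to be well above background. Leaving out 1 array at a time gave 1 to 1 and 5 to 6 members, and 2283 to 2330 and 2899 to 3189 genes. The reverse labelled arrays alone gave 8 members in A2780CBNDXL, adding DDIT3, DDIT4 and PSAT1. The share of all genes called on those arrays alone is not given here, so this larger count has no background beside it. In A2780CBN, members numbered 0 on the forward arrays, 2 with all probes averaged (ASNS added), 3 at 1.5-fold and 0 at 3-fold. With the other line's control the count of 1 was SESN2 at 1.04, TRIB3 being lost at 0.44. The slide block in limma, limma without it and the methods' 3-way ANOVA called the same members as the main rule, and so did slide 2 alone in both lines. Of the alternative log2 ratios of members, 112 of 122 in A2780CBN and 100 of 117 in A2780CBNDXL lay within 1 SD of the main value. The difference between the lines in DDIT3 turned from -1.17 to 0.027 with the control of the other line, an exchange that adds the control difference to that of the lines. The cause of these changes was not tested.

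Genes changed in A2780CBN numbered 4860 at 1.5-fold, 1121 at 3-fold and 605 with normexp, and in A2780CBNDXL 5699, 1467 and 1174. At 1.5-fold in A2780CBN there were 4 transporters, 2 synthetases, 1 chaperone gene, 8 further targets and 2 stress sensors, and at 3-fold 0 synthesis enzymes, 0 transporters and 1 each of the hypoxia, further target and p53 lists. In A2780CBNDXL, 1.5-fold gave 3 chaperone genes and 7 p53 targets, and 3-fold gave 2 synthesis enzymes, 2 synthetases, 5 further targets, 0 p53 targets and 0 stress sensors. Normexp gave 0 synthesis enzymes, 0 transporters and 1 hypoxia gene in A2780CBN, and 1 p53 target and 0 stress sensors in A2780CBNDXL. The other line's control gave 0 synthesis enzymes, 2 transporters, 8 hypoxia genes and 6 further targets in A2780CBN, and 1 stress sensor and 4 hypoxia genes (2 lower and 2 higher) in A2780CBNDXL. Forward arrays alone gave 0 synthesis enzymes, 1 chaperone gene and 1 stress sensor in A2780CBN, and 2 chaperone genes, 1 p53 target and 1 stress sensor in A2780CBNDXL. Reverse arrays alone gave 2 transporters, 3 p53 targets and 1 stress sensor in A2780CBN, and 5 p53 targets in A2780CBNDXL. Slide 1 alone gave 0 transporters in A2780CBN, both channels above background gave 1 hypoxia gene there, and centred background-subtracted signals or averaged probes gave 1 stress sensor in A2780CBNDXL. Without 1 array, the transporters called in A2780CBN were 0 to 1. A signal near background, as for ATF3 and SLC7A11 in A2780CBNDXL, limits how large a fold can be measured. No paired analysis was possible because each line is 1 sample.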
